A study of Oryctolagus cuniculus with 9 samples.

Results

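The genes described here are 10 secreted or membrane-bound enzymes and inhibitors of matrix breakdown: the matrix metalloproteinases MMP1, MMP2, MMP3, MMP9, MMP13 and MMP14, the aggrecanase ADAMTS4, and the tissue inhibitors of metalloproteinases TIMP1, TIMP2 and TIMP3. They were taken by symbol from a table of 19511 loci, and 9 of the 10 had a row, 1 row each. No row carried the name TIMP2, so TIMP2 is not analysed here. Some of the genes were selected on their FPKM in these libraries, for changes in opposite directions in the H/R and the GA+H/R libraries, and which ones is not recorded. Their levels and differences are therefore a description and were not tested.

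RNA came from primary parathyroid cells of rabbit, in 3 groups of 3 libraries. GA+H/R cells were pretreated for 24 h with gallic acid, a polyphenol from plants, at 1200 µM and then went through hypoxia and reoxygenation, labelled as 6 h and 6 h. H/R cells went through the same 6 h and 6 h with no drug. Control cells were untreated and are labelled day 0. The labels name no genetic change and do not state that libraries are from different animals or cultures, or that time in culture was matched, so errors below measure the spread between libraries only. The series asks how gallic acid acts on parathyroid cells in this model of ischaemia and reperfusion.

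Matrix metalloproteinases are zinc enzymes made as inactive precursors, and activation, not transcription alone, sets how much they cut. The collagenases MMP1 and MMP13 cleave fibrillar collagen, the stromelysin MMP3 cleaves proteoglycans and activates other precursors, the gelatinases MMP2 and MMP9 degrade denatured and basement membrane collagen, and MMP14 sits in the membrane and activates the precursor of MMP2. TIMPs bind the active site of these enzymes, and TIMP3 also inhibits ADAMTS proteases. Connective tissue and inflammatory cells are the usual sources of these transcripts.

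Deposited FPKM (a level per transcript length and library size) were not on the same footing in the 3 groups. They summed to 467499 to 516231 in GA+H/R libraries, 730117 to 752065 in H/R libraries and 1648010 to 1696490 in control libraries. The median log2 difference of deposited FPKM + 1 over loci was -0.50 in GA+H/R relative to H/R and -1.25 in H/R against control. Each library was therefore also divided by a factor that brings its median locus to that of the mean library. The factors were 0.422 to 0.424 in GA+H/R, 0.670 to 0.672 in H/R and 1.77 to 1.96 in control libraries. Values below are deposited FPKM, and log2 differences are of FPKM + 1 relative to the median locus unless the deposited scale is named. The added 1 understates differences of genes at low FPKM. Levels are compared within a gene and not between genes. In bulk RNA, fewer cells of a type and less RNA per cell cannot be told apart.

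The labelled cell type was not borne out by its markers. Of 10 parathyroid markers, 7 were in the table and their FPKM summed to 3.84 to 4.13 in GA+H/R, 6.88 to 7.56 in H/R and 12.6 to 20.7 in control libraries, with parathyroid hormone (PTH) at no more than 0.142 FPKM in any library. The 9 fibroblast markers in the table summed to 7493 to 7652 FPKM in GA+H/R, 9827 to 9869 in H/R and 14315 to 17279 in control libraries, but most of each sum was VIM, which encodes vimentin and is not specific to fibroblasts (7347 to 7501 in GA+H/R, 9585 to 9618 in H/R and 13379 to 14939 in control). Of the others, DCN was at 69.5 to 79.1 FPKM in GA+H/R, 123 to 132 in H/R and 390 to 1259 in control libraries. FAP was at 61.0 to 65.0, 76.5 to 88.1 and 436 to 905 FPKM in the same groups. PDGFRB was at 8.31 to 10.1, 23.6 to 27.4 and 93.9 to 108 FPKM, and POSTN at 0.333 to 0.449, 1.72 to 2.24 and 9.81 to 76.4. The highest values in any library were 4.59 FPKM for THY1, 1.74 for PDGFRA, 0.650 for DPT and 0.315 for FBLN1. Control 1 stood apart from controls 2 and 3. Its macrophage markers summed to 4.74 FPKM against 65.6 and 76.0 in the other controls, and all 9 genes described here were lowest, among controls, in control 1. Of all 10956 loci tested, 39.1% were lowest there. Differences of the 9 genes from control are also given without control 1 where the log2 value then changes sign or moves by over 1.5 times.

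Of the collagenases, MMP13 was high in control cells, lowest in H/R cells and partly higher again after gallic acid. It was at 493, 487 and 513 FPKM in the GA+H/R libraries, at 335, 339 and 325 in the H/R libraries, and at 5092, 6369 and 6213 in the control libraries. The 3 groups did not overlap. Relative to the median locus the difference was 1.24 ± 0.11 (SE, n = 3 a group) in GA+H/R against H/R, -2.68 ± 0.11 in H/R against control and -1.43 ± 0.11 in GA+H/R against control. As deposited, the 3 differences were 0.58, -4.13 and -3.56, in the same directions.

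MMP1, the interstitial collagenase, had the opposite order relative to the median locus. It was at 9.57, 7.19 and 8.56 FPKM in GA+H/R libraries, at 32.8, 34.1 and 32.8 in H/R libraries, and at 1.87, 18.1 and 10.9 in control libraries. The H/R libraries lay above all others, and the controls lay on both sides of the GA+H/R libraries. Relative to the median locus, MMP1 differed by -1.28 ± 0.52 in GA+H/R relative to H/R and by 3.24 ± 0.52 in H/R against control, the second being 2.50 without control 1. GA+H/R stood 1.96 ± 0.52 above control on that scale, or 1.22 without control 1, and the groups overlapped on the deposited scale, where the difference was 0.11.

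MMP3, or stromelysin 1, had the same order as MMP1. It was at 2.33, 1.99 and 2.96 FPKM in GA+H/R libraries, 5.65, 6.57 and 6.22 in H/R libraries, and 0.989, 4.15 and 4.62 in control libraries. H/R again lay above both other groups, which overlapped on the deposited scale. The difference was -0.60 ± 0.30 in GA+H/R relative to H/R and 1.96 ± 0.30 in H/R against control, relative to the median locus. GA+H/R minus control was 1.35 ± 0.30 there, and -0.18 on the deposited scale.

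**Figure D1:**
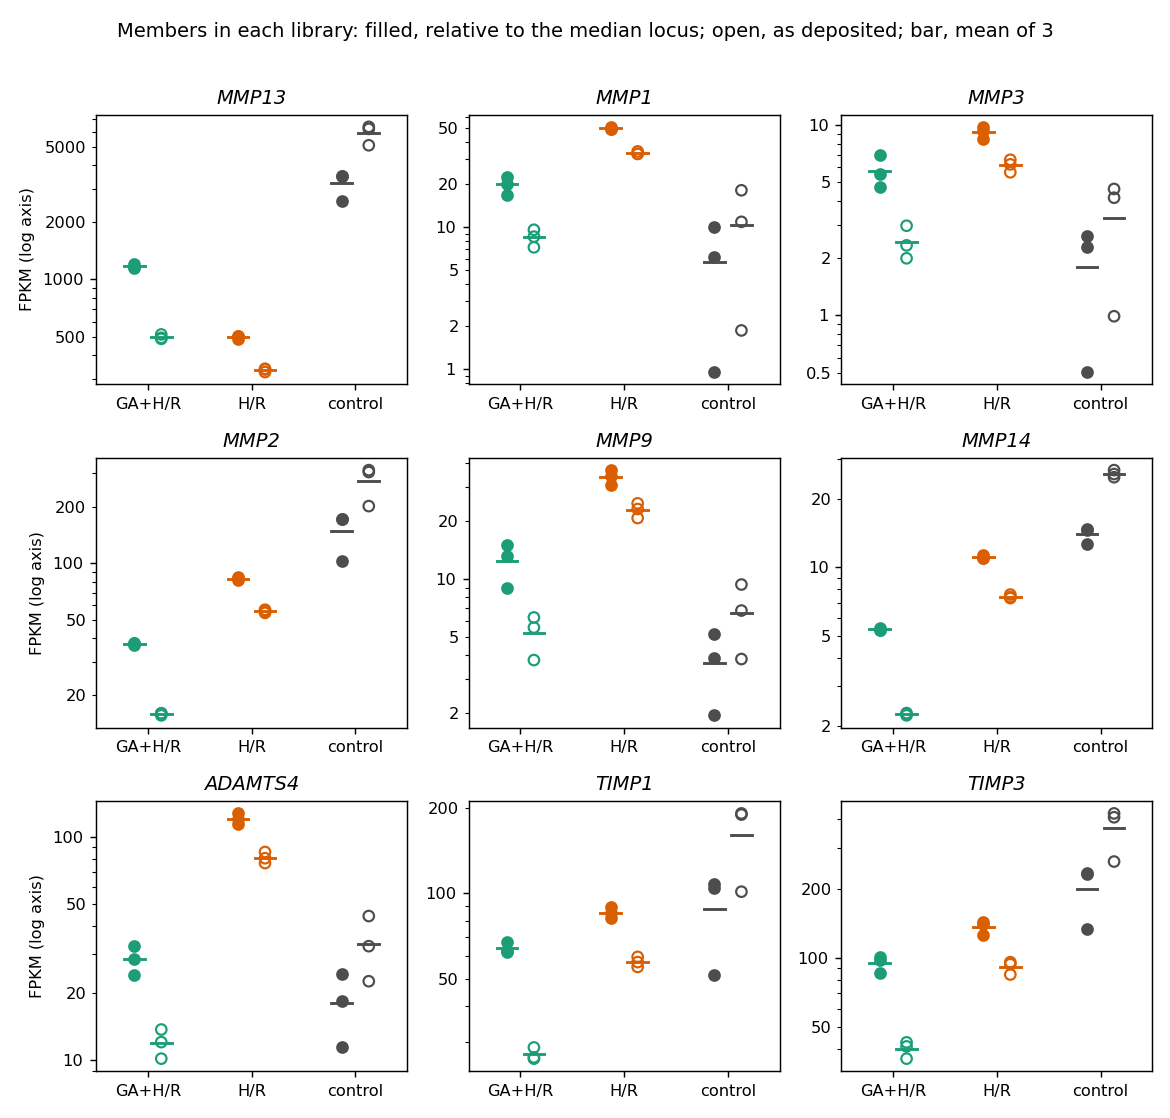
FPKM of 9 genes in each library, on a log axis, for GA+H/R, H/R and control cells. Filled points are relative to the median locus, open points are as deposited, and each bar is the mean of 3 libraries. MMP1, MMP3, MMP9 and ADAMTS4 are highest in H/R, where MMP1 sits between 32.8 and 34.1 deposited FPKM, while MMP13 is lowest there on both scales, between 325 and 339 deposited FPKM.

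The gelatinases differed from each other. MMP9, the inducible gelatinase of leukocytes and stimulated connective tissue cells, was at 6.28, 5.57 and 3.77 FPKM in GA+H/R libraries, 20.7, 24.7 and 23.1 in H/R libraries, and 3.82, 9.33 and 6.83 in control libraries. H/R libraries lay well above both other groups. MMP9 differed by -1.42 ± 0.27 in GA+H/R relative to H/R and by 2.97 ± 0.27 in H/R relative to control. GA+H/R was 1.55 ± 0.27 higher than control relative to the median locus, but the groups overlapped on the deposited scale, with a difference of -0.26.

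MMP2, the constitutive gelatinase of fibroblasts, was lower at each step. It was at 16.03, 16.01 and 15.6 FPKM in GA+H/R libraries, at 56.8, 54.6 and 55.9 in H/R libraries, and at 201, 313 and 305 in control libraries. No 2 groups overlapped. The difference was -1.13 ± 0.18 in GA+H/R relative to H/R and -0.80 ± 0.18 in H/R relative to control. GA+H/R was 1.92 ± 0.18 lower than control on the log2 scale, relative to the median locus.

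MMP14, the membrane-type enzyme, had the same order as its substrate MMP2. It was at 2.29, 2.26 and 2.24 FPKM in GA+H/R libraries, 7.33, 7.41 and 7.60 in H/R libraries, and 24.9, 26.8 and 25.7 in control libraries. The groups were separate on both scales. Relative to the median locus, however, most of the difference lay between GA+H/R and H/R, at -0.93 ± 0.09, and little between H/R and control, at -0.31 ± 0.09. The deposited differences were -1.37 and -1.67.

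ADAMTS4, an aggrecanase that cleaves aggrecan and versican, was the gene with the largest difference between GA+H/R and H/R among the 9. It was at 10.2, 12.1 and 13.7 FPKM in GA+H/R libraries, 80.5, 76.5 and 85.8 in H/R libraries, and 22.6, 44.3 and 32.5 in control libraries. The H/R libraries lay above all others. ADAMTS4 differed by -2.06 ± 0.23 in GA+H/R relative to H/R and by 2.73 ± 0.23 in H/R against control. Against control, GA+H/R was at 0.67 ± 0.23 relative to the median locus (0.40 without control 1), with overlapping groups, and at -1.35 on the deposited scale, with separate ones. Its position against control therefore changed sign with the scaling.

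Relative to the median locus, the inhibitors TIMP1 and TIMP3 had the smallest differences of the 9 genes between GA+H/R and H/R. TIMP1, the soluble inhibitor, was at 26.5, 28.7 and 26.2 FPKM in GA+H/R libraries, 59.8, 57.3 and 55.1 in H/R libraries, and 101, 189 and 191 in control libraries. The 3 groups were separate as deposited. Relative to the median locus the difference was -0.41 ± 0.24 in GA+H/R relative to H/R and 0.03 ± 0.24 in H/R against control. The second was -0.29 without control 1, -0.25 at equal library totals and -1.41 on the deposited scale, so no direction is given for it. GA+H/R minus control was -0.38 ± 0.24, or -0.71 without control 1, -0.22 without control 2 and -0.19 without control 3.

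TIMP3, which stays bound to the matrix, was at 41.2, 42.9 and 36.4 FPKM in GA+H/R libraries, 95.7, 84.6 and 93.8 in H/R libraries, and 262, 425 and 409 in control libraries. It was lower at each step on the deposited scale, and H/R and control overlapped relative to the median locus. The differences relative to the median locus were -0.52 ± 0.19 in GA+H/R relative to H/R and -0.51 ± 0.19 in H/R relative to control. GA+H/R was 1.02 ± 0.19 lower than control on the log2 scale.

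Counted over the 9 genes relative to the median locus, GA+H/R and H/R libraries did not overlap for 9, with MMP13 higher in GA+H/R and the other 8 lower. The same was true of 52% of the 10956 loci tested, 27.4% higher and 24.5% lower. H/R and control libraries did not overlap for 7 of the 9. MMP1, MMP3, MMP9 and ADAMTS4 were higher in H/R, and MMP2, MMP13 and MMP14 were lower, against 67.1% of loci, 34.1% higher and 33% lower. GA+H/R and control libraries did not overlap for 7, namely MMP1, MMP3 and MMP9, which were higher, and MMP2, MMP13, MMP14 and TIMP3, which were lower, against 71.4% of loci, 35% higher and 36.5% lower. On the deposited scale GA+H/R and H/R libraries also did not overlap for 9, MMP13 higher and 8 lower, beside 75.2% of loci, 3.2% higher and 72% lower. H/R and control libraries did not overlap for 9 on that scale, with the same 4 higher and 5 lower, beside 90.9% of loci, 4.38% higher and 86.5% lower. GA+H/R and control libraries did not overlap there for 6, with 0 higher and 6 lower, and MMP1, MMP3 and MMP9 overlapped, beside 94.2% of loci, 4.17% higher and 90.1% lower. These comparisons chose some of the genes, so nothing is read from the counts.

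**Figure D2:**
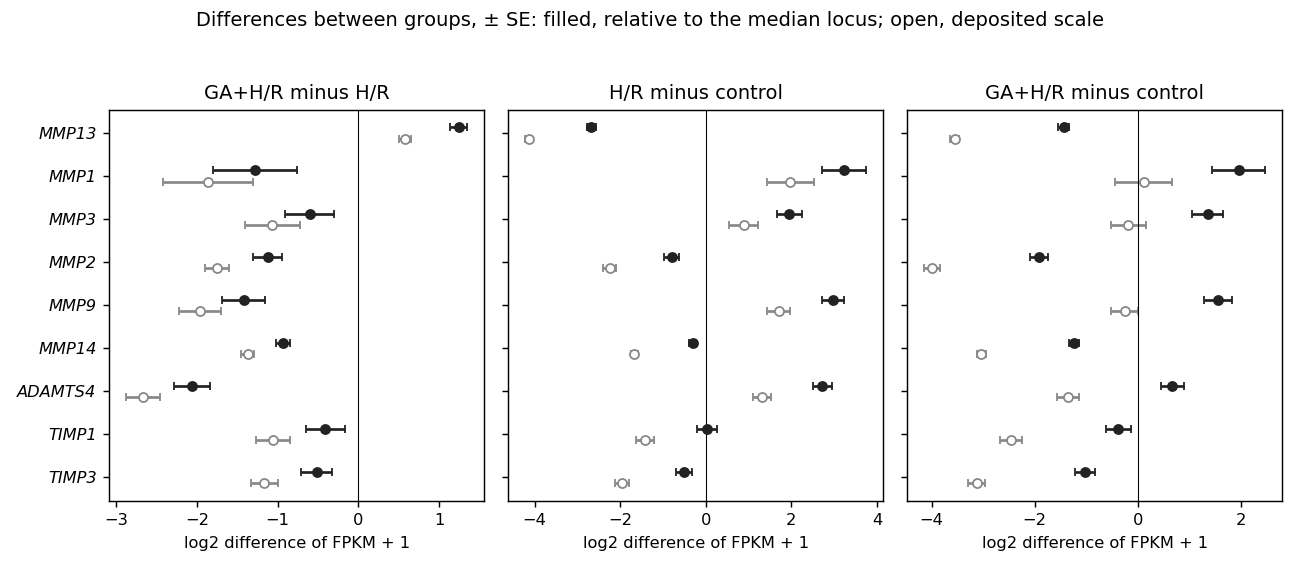
Log2 difference of FPKM + 1 for the 9 genes in the 3 comparisons, with the SE as a bar. Filled points are relative to the median locus and open points are on the deposited scale. MMP13 is the gene above 0 in GA+H/R minus H/R, and in GA+H/R minus control the sign differs between the scales for MMP3, MMP9 and ADAMTS4.

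The ratio of an enzyme to its inhibitor inside a library does not depend on the scaling between libraries. The log2 ratio of MMP13 to TIMP1 was 4.20 ± 0.11 in GA+H/R, 2.54 ± 0.04 in H/R and 5.25 ± 0.35 in control cells (SD, n = 3 each). The ratio of MMP9 to TIMP1 was -2.41 ± 0.36 in GA+H/R, -1.33 ± 0.17 in H/R and -4.63 ± 0.25 in control cells. In both cases the 3 groups were separate, and the order of the groups for MMP13 was the reverse of that for MMP9.

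For ADAMTS4 over TIMP1 the values were -1.19 ± 0.23 in GA+H/R, 0.50 ± 0.13 in H/R and -2.27 ± 0.25 in control cells, with no overlap. The ratio was higher in GA+H/R than in control in every library, although deposited ADAMTS4 itself was lower there. MMP1 over TIMP1 was -1.69 ± 0.27 in GA+H/R, -0.79 ± 0.07 in H/R and -4.43 ± 1.22 in control cells, also separate. Its difference of 3.64 in H/R against control was 2.97 without control 1. MMP3 over TIMP1 was -3.50 ± 0.35, -3.23 ± 0.15 and -5.85 ± 0.72 in the same order, and its GA+H/R and H/R libraries overlapped.

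MMP2 over TIMP1 was lower at each step, at -0.77 ± 0.06 in GA+H/R, -0.04 ± 0.05 in H/R and 0.80 ± 0.17 in control cells. MMP14 over TIMP1 was -3.58 ± 0.07 in GA+H/R, -2.95 ± 0.08 in H/R and -2.58 ± 0.48 in control cells, and H/R overlapped with control, where the difference of -0.37 was -0.089 without control 1. The ratio of MMP14 to MMP2, its substrate, was -2.81 ± 0.01 in GA+H/R, -2.90 ± 0.04 in H/R and -3.38 ± 0.31 in control cells. TIMP3 over TIMP1 was 0.56 ± 0.08 in GA+H/R and 0.67 ± 0.10 in H/R, which overlapped, and 1.21 ± 0.14 in control cells. The 2 collagenases showed the widest swing of the ratios computed, with a log2 ratio of MMP13 to MMP1 of 5.89 ± 0.20 in GA+H/R, 3.33 ± 0.02 in H/R and 9.67 ± 1.54 in control cells. Its difference of -6.35 in H/R against control was -5.48 without control 1.

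**Figure D3:**
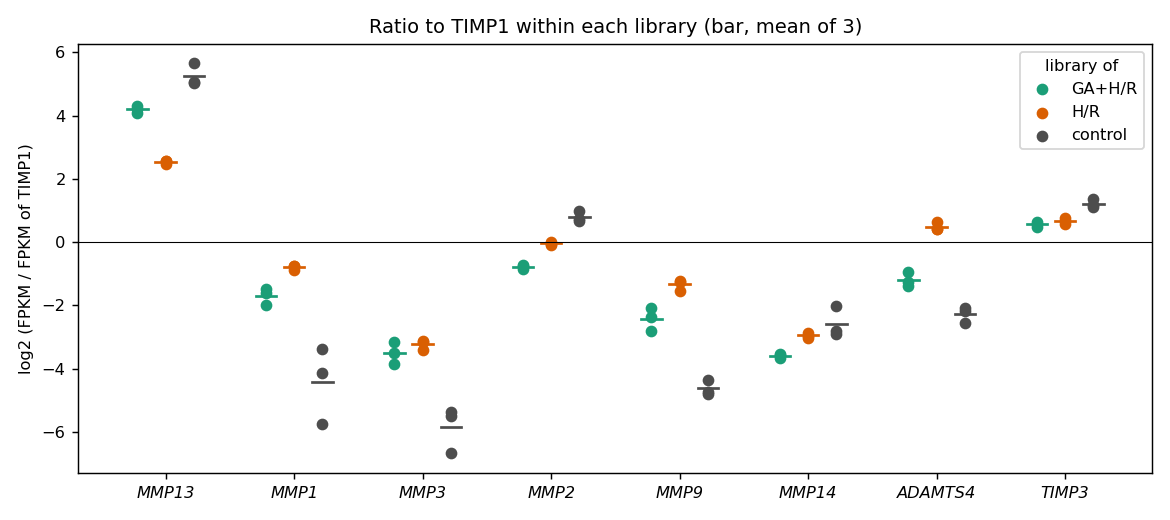
Log2 ratio of the FPKM of 8 genes to that of TIMP1 in each library, with GA+H/R, H/R and control side by side and a bar at the mean of 3. The ratio of MMP13 is lowest in H/R (2.54) and those of MMP1, MMP9 and ADAMTS4 are highest there (-0.79, -1.33 and 0.50), while MMP2 steps down to -0.77 in GA+H/R.

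MMP1, MMP3 and MMP13 are neighbours. In RefSeq's rabbit assembly mOryCun1.1, which is not named as the build of the table, the genes MMP10, MMP1, MMP3, MMP12 and MMP13 follow each other in this order on chromosome 1. MMP12, the macrophage elastase, was at 37.98, 40.9 and 35.9 FPKM in GA+H/R, 3.37, 3.24 and 3.95 in H/R, and 0.533, 11.6 and 10.7 in control libraries. It rose in GA+H/R against H/R by 3.87 ± 0.57 on the log2 scale (limma, adjusted p = 0.00121, higher in 3 of 3 libraries), and by 3.12 on the deposited scale. H/R against control was 0.62 ± 0.57 (adjusted p = 0.377), but -0.19 without control 1 and -0.43 on the deposited scale, so no direction is given for it.

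MMP10, stromelysin 2, was named after its values were seen. It was at 0.560, 0.504 and 0 FPKM in GA+H/R, 3.08, 1.83 and 2.02 in H/R, and 0, 0 and 0.218 in control libraries. It passed the filter through the H/R libraries, where it is high, so its differences of 2.07 ± 0.31 in H/R against control and -1.35 ± 0.31 in GA+H/R against H/R are a description. All H/R libraries lay above all others, as for its neighbours MMP1 and MMP3.

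The 5 adjacent genes had their highest level in 3 different groups. MMP10, MMP1 and MMP3 were highest in H/R, MMP12 was highest in GA+H/R, and MMP13 was highest in control. The sum of macrophage markers moved with MMP12. Of 14 listed markers, 10 were in the table. They summed to 145.7 to 152 FPKM in GA+H/R, 19.6 to 22.9 in H/R and 4.74 to 76.0 in control libraries. The lowest sum was that of control 1, which was also lowest for MMP12. Most of each GA+H/R sum was MRC1 (85.5 to 96.4 FPKM) and MPEG1 (32.9 to 39.8). AIF1, C1QC and TYROBP were not tested and were at no more than 0.517 FPKM in any library. C1QC and TYROBP were higher in GA+H/R than in H/R libraries, and AIF1 overlapped between them. All 6 markers that were tested were called higher in GA+H/R than in H/R. CD14 and FCER1G, however, passed the filter through GA+H/R only, so their calls were set by it. The other 4 (CD163, CSF1R, MRC1 and MPEG1) also rose on the deposited scale. PTPRC, a defining leukocyte marker, was at no more than 0.111 FPKM in any library. At that low level, its GA+H/R libraries (0.0940 to 0.111) still lay above its H/R libraries (0 to 0.0344). MMP9 did not follow these sums, being highest in H/R. The part of such cells in these values was not tested.

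**Figure D4:**
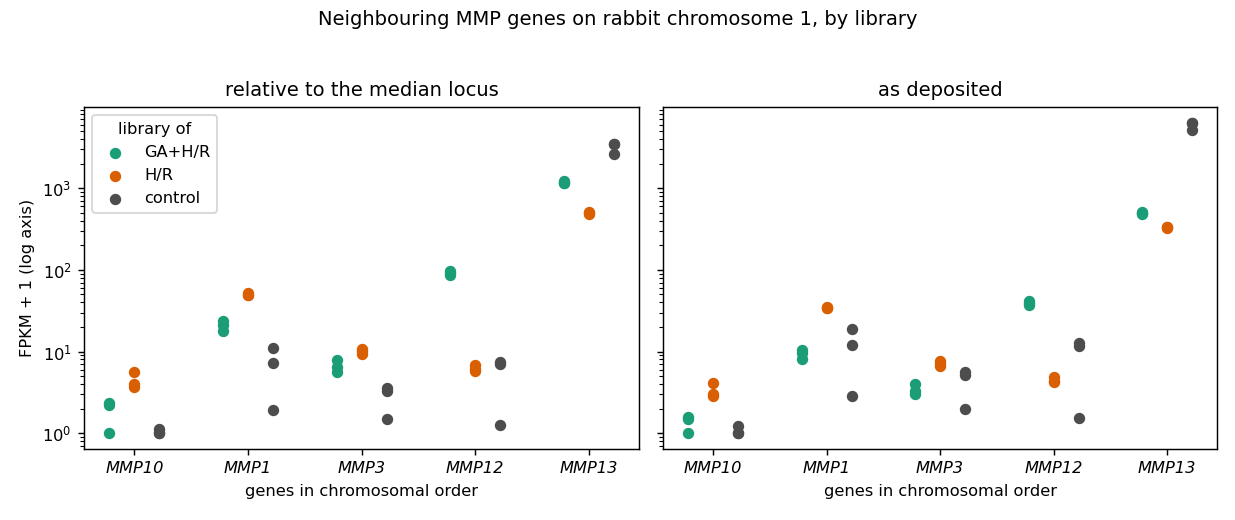
FPKM + 1, on a log axis, of the 5 neighbouring MMP genes in chromosomal order, with 1 point a library, relative to the median locus (left) and as deposited (right). MMP12 is highest in GA+H/R (35.9 to 40.9 deposited FPKM), MMP13 in control, and MMP10, MMP1 and MMP3 in H/R.

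Other genes of matrix turnover were taken from lists of symbols by function, and were tested with all loci. The lists were chosen with earlier results of these data known, so their counts and p-values are not independent of those results. The 3 comparisons share libraries, and p-values measure the spread between libraries. In GA+H/R against H/R, 33.9% of the 10956 loci were called at an adjusted p under 0.05 by limma, 18.7% higher and 15.2% lower. In H/R against control, 57.6% were called, 29.2% higher and 28.4% lower. On the deposited scale 66% of loci were called in GA+H/R against H/R, 1.69% higher and 64.3% lower, and 90.2% in H/R against control, 4.18% higher and 86% lower.

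Where 5 or fewer genes of a list passed the test they are named, and those with a log2 change under 1 or a mean under 5 FPKM in the higher group were named after their values were seen. Most of the other ADAMTS proteases fell. Of 9 tested, 8 fell and 0 rose in GA+H/R against H/R, with a median of -0.71 where that of all loci was 0.0040. In H/R against control 5 fell (ADAMTS1, ADAMTS2, ADAMTS3, ADAMTS9 and ADAMTS12) and 0 rose, with a median of -0.88 where that of all loci was 0.0028. ADAMTS4, by comparison, was 2.73 higher in H/R than in control. ADAMTS12, a protease of cartilage matrix, averaged 35.7 ± 2.97 FPKM in GA+H/R, 109.9 ± 8.31 in H/R and 725 ± 135 in control cells (SD, n = 3 each). It fell by 0.95 ± 0.16 (limma, adjusted p = 0.00248) and by 1.24 ± 0.16 (adjusted p = 2.03e-04) in the 2 comparisons. ADAMTS9, which cleaves versican, and ADAMTS3, which processes a procollagen, fell by 1.17 and 1.10 in H/R against control, and ADAMTS3 was at -0.53 in GA+H/R against H/R, not called (limma, adjusted p = 0.0757) but called without control 1 and on the deposited scale.

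Of 8 other MMPs tested, 1 rose in GA+H/R against H/R, MMP12, and 3 fell, MMP10, MMP17 and MMP21 (median -0.31). Without H/R replicate 3, 1 fell. In H/R against control MMP10 was counted as a rise, while MMP11 and MMP16 fell (median -0.097), with 1 falling without control 2 or 3 or without H/R replicate 1 or 2. The place of MMP10 in these counts was set by the filter, as it passed through H/R only. MMP21 passed in 2 H/R libraries, 1 control library and 0 GA+H/R libraries, so its fall was set by the filter too. It was at 0, 0 and 0.157 FPKM in GA+H/R libraries and 1.15, 0.424 and 1.49 in H/R libraries.

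Genes of the ADAM family, which includes sheddases that release membrane proteins, numbered 9 tested. In GA+H/R against H/R 1 rose and 4 fell, ADAM9, ADAM15, ADAM17 and ADAM19 (median -0.41), with 2 falling without any 1 of the H/R libraries or of GA+H/R replicates 1 and 2. In H/R against control 1 rose and 6 fell (median -0.61). ADAM8, a protease of leukocytes, rose in both comparisons, by 1.36 ± 0.14 (limma, adjusted p = 2.29e-04) and 1.04 ± 0.14 (adjusted p = 2.90e-04), but on the deposited scale the second was -0.27 and not called. ADAM19 fell by 1.01 in GA+H/R against H/R. ADAM12, ADAM10 and ADAM9 fell by 1.56, 1.31 and 1.04 in H/R against control.

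Other inhibitors and partners, 7 tested, had 0 rising and 3 falling in GA+H/R against H/R (RECK, LRP1 and PCOLCE, list median -0.53) and 0 rising and 2 falling in H/R against control (RECK and LRP1, list median -0.18). LRP1 is a receptor that takes up proteases with their inhibitors. RECK, a membrane-anchored inhibitor of MMP2, MMP9 and MMP14, averaged 2.59 ± 0.103 FPKM in GA+H/R, 7.31 ± 0.160 in H/R and 43.8 ± 5.21 in control cells. It fell by 0.74 ± 0.12 (limma, adjusted p = 0.00217) and by 1.05 ± 0.12 (adjusted p = 1.05e-04). TIMP4 was at no more than 0.0637 FPKM in any library.

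In the plasminogen system and the proteases that activate MMP precursors, 13 were tested. 0 rose and 6 fell in GA+H/R against H/R, with 3 falling without H/R replicate 2 or 3, and 2 rose (PLAUR and PCSK7) and 6 fell in H/R against control. The medians were -0.26 and -0.29, and on the deposited scale PLAUR and PCSK7 fell. PCSK5, a proprotein convertase, fell by 1.88 ± 0.37 in H/R against control, FAP, a fibroblast surface protease, by 1.66 and PRSS23, a serine protease, by 1.25.

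Factors that act on MMP promoters were mixed. Of 14 tested, 7 rose and 5 fell in H/R against control, with a median of 0.60, and 0 rose and 5 fell in GA+H/R against H/R (FOS, FOSB, FOSL2, JUN and RUNX1), with a median of -0.36. On the deposited scale 0 of 13 rose and 11 fell in H/R against control, so the direction of the 7 depends on the scaling. FOSB passed the filter through H/R only, which set its place in both counts relative to the median locus. FOS, a subunit of AP-1, averaged 9.81 ± 2.31 FPKM in GA+H/R and 48.9 ± 4.30 in H/R and fell by 1.64 ± 0.19 (limma, adjusted p = 3.90e-04). In control cells it averaged 74.9 ± 16.0 FPKM, and H/R against control was 0.85 relative to the median locus and -0.58 on the deposited scale, both called. The stress factor ATF3 rose in H/R against control by 1.83 ± 0.30 (adjusted p = 7.39e-04), but was at 0.46 and not called on the deposited scale, and RUNX1 fell by 1.31.

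Of 17 cytokines and receptors that regulate these enzymes, 1 rose (TGFBR1) and 6 fell in GA+H/R against H/R (median -0.14), and 2 rose (IL1A and IL1RN) and 9 fell in H/R against control (median -0.52). As deposited, 0 of 18 rose and 14 fell in each comparison, and IL1A was at -0.37 in H/R against control, not called. TGFBR1, a TGF-beta receptor, fell in H/R against control by 1.12. Its difference of 0.29 in GA+H/R against H/R was a fall on the deposited scale. IL6ST, the signalling subunit of interleukin 6 family receptors, fell by 1.27 in H/R against control. IL1RN, an antagonist of interleukin 1, was at 1.32 ± 0.45 there (limma, adjusted p = 0.0320), and the call was lost without any single control or H/R library other than control 1 and on the deposited scale, where the difference was 0.20.

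Of 9 cathepsins, which are lysosomal proteases, 3 rose (CTSC, CTSH and CTSS) and 0 fell in GA+H/R against H/R, with a median of 0.0019. In H/R against control 0 rose and 3 fell (CTSC, CTSO and CTSS), with a median of -0.10, and 1 fell without control 2 or H/R replicate 3. CTSO would not have passed the filter without the control libraries, where it is higher. On the deposited scale 0 rose and 6 fell in GA+H/R against H/R, so the rises depend on the scaling.

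Substrates of the enzymes moved mostly one way. Of 21 matrix genes tested, 1 rose (BGN, by 0.21, a fall on the deposited scale and not called without any 1 GA+H/R or H/R library) and 15 fell in GA+H/R against H/R, with a median of -0.92, and 0 rose and 15 fell in H/R against control, with a median of -0.98 (3 rising and 17 falling without control 1). VCAN, which encodes versican, a substrate of ADAMTS4, fell by 1.59 ± 0.31 in H/R against control (limma, adjusted p = 0.00216). COL1A2 and COL6A3 fell by 1.58 and 1.37 there, and COL1A1, COL5A1 and COL5A2 fell by 1.50, 1.36 and 1.27 in GA+H/R against H/R.

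Housekeeping transcripts moved by length class beside these lists. Of 27 long ones tested, 0 rose and 17 fell in GA+H/R against H/R (median -0.36), and 0 rose and 20 fell in H/R against control (median -0.47). Of 17 short ones, 8 rose and 0 fell in GA+H/R against H/R (median 0.37), and 16 rose and 0 fell in H/R against control (median 1.05). NDUFS5, a short one, would not have passed the filter without the GA+H/R libraries. As deposited, 0 of 16 short ones rose and 6 fell in GA+H/R relative to H/R, and 3 rose and 5 fell in H/R against control. The part of transcript length in the values of the proteases and inhibitors, and in their ratios within a library, was not tested. Nor was its part in the counts of the lists above, the matrix substrates included.

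**Figure D5:**
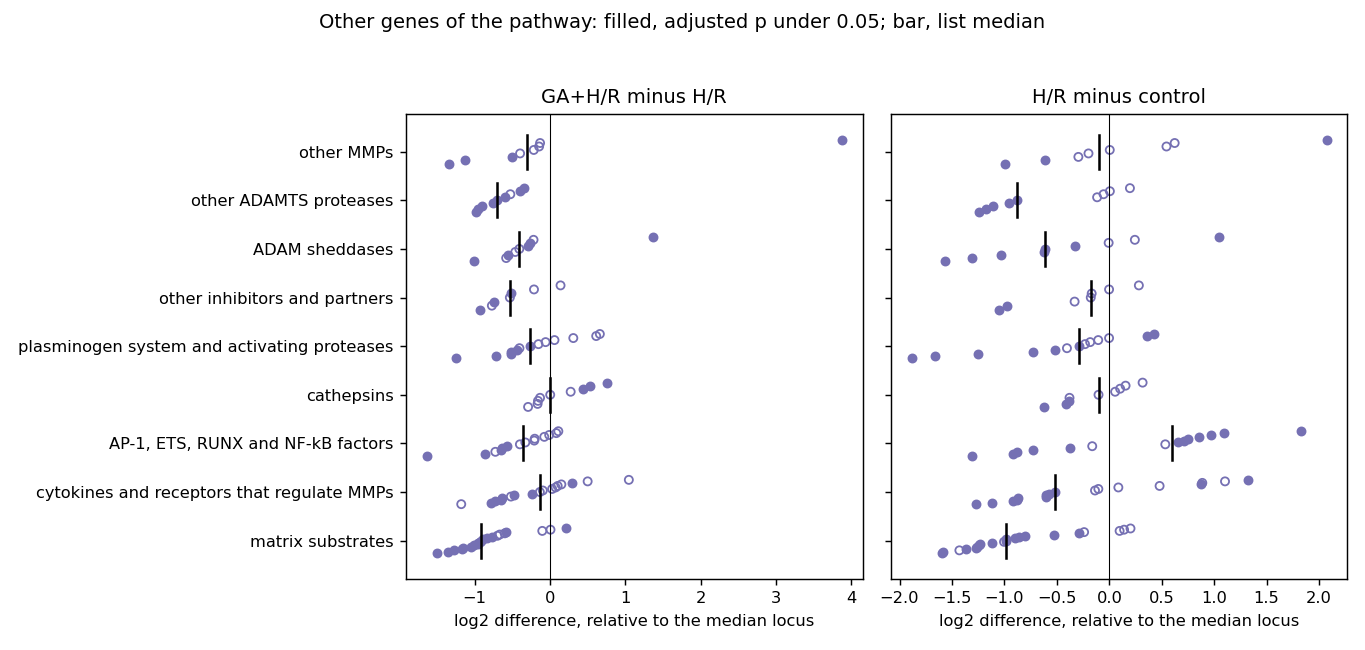
Log2 difference of each gene of 9 lists of matrix turnover, relative to the median locus, in GA+H/R minus H/R and H/R minus control. Filled points passed an adjusted p under 0.05, open points did not, and each bar is the list median. The other ADAMTS proteases lie below 0 in GA+H/R minus H/R (median -0.71), and MMP12 is the point at 3.87.

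The loci most like each gene over the 9 libraries were found by Pearson's r of log2(FPKM + 1) relative to the median locus, among 5242 named loci at a mean of 10 FPKM or more. They are a description of 9 libraries that fall into 3 groups. MMP2 was closest to LOXL2, a collagen cross-linking enzyme (r = 0.999), and COL5A3, a collagen (0.998). MMP14 was closest to CYR61, a matricellular protein (0.998), and the fibronectin receptor subunit ITGA5 (0.996). MMP13 was closest to G3BP2 and APPL1 (0.988 and 0.987), MMP1 to BCAR1 and FABP5 (0.980 and 0.978), and MMP3 to GATSL3 and CAPZB (0.979 and 0.978).

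MMP9 was closest to LRRN4CL and TNIP1, an inhibitor of NF-kB signalling (r = 0.964 and 0.962), and ADAMTS4 to MVP and the kinase SGK1 (0.963 and 0.939). TIMP1 was closest to CORO1C and CTSF (0.988 and 0.975), and TIMP3 to CCDC80 and PRUNE2 (0.990 and 0.989). No 2 of the 9 genes shared a nearest locus.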

How the data were processed

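RNA-seq of 9 libraries, 3 in each of 3 groups, was analysed from 1 table of 19511 loci. Its values are FPKM deposited by the authors, per the file headers. The p-values and q-values that the authors deposited were not used further. The submitters' processing notes name GRCm38 and mm10, which are mouse builds, and the aligner is not given in the sources used here. FPKM carry no read counts, so depth is unknown and counting error cannot be computed.

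A factor for each library, the median ratio of its values to the mean over libraries at loci of 1 FPKM or more in all 9, was divided out. Loci at 1 scaled FPKM or more in at least 3 libraries, 10956 in all, were tested as log2(FPKM + 1) with limma 3.58.1 in R 4.3.3 (trended, robust, Benjamini-Hochberg adjustment, called under 0.05), a step also tested on simulated data. All 9 genes with a row passed that filter, and all matched RefSeq by symbol. Named pathway genes were those called in either of the first 2 comparisons with an absolute log2 change of 1 or more and, in the higher group, a mean of 5 FPKM or more, up to 6 a list. The genes and lists were chosen with earlier results of these data known. Other scalings, pseudocounts, filters, models and left-out libraries were tried.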

Additional observations from a re-analysis of the deposited data

How the results depend on the processing

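Of the alternatives tried, the scaling between libraries moved the counts of calls by over 1.5 times. On the deposited scale 7255 loci were called in GA+H/R against H/R, against 3712 relative to the median locus, and 9922 in H/R against control, against 6315. Of the pathway genes, 92 and 100 were called in these comparisons, against 57 and 66. Higher calls made up 55.2% of all relative to the median locus, 2.56% on the deposited scale and 42.1% at equal totals in GA+H/R against H/R. They made up 50.7%, 4.64% and 32% in H/R against control, and 48.7%, 4.35% and 32.8% in GA+H/R against control.

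TIMP1 in H/R against control turned negative on the deposited scale (-1.41), at equal totals (-0.25), without control 1 (-0.29) and without H/R replicate 1 (-0.00157), and ranged from -0.29 to 0.23 over the libraries left out. In GA+H/R against control, MMP3 (-0.18), MMP9 (-0.26) and ADAMTS4 (-1.35) turned negative on the deposited scale. In H/R against control, MMP12 turned negative on the deposited scale (-0.43) and without control 1 (-0.19), ranging from -0.19 to 1.01 over the libraries left out, and FOS on the deposited scale (-0.58). Of the values of the 9 genes under all alternatives, 424 moved by less than the spread between replicates, 55 moved by more and 7 changed sign.

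Libraries with the same replicate number did not deviate together (correlations from -0.018 to 0.026), which gave no sign that the numbers pair libraries. The labels do not state a pairing. With the replicate block 3385 loci were called in GA+H/R against H/R, 6142 in H/R against control and 7441 in GA+H/R against control, with 54, 66 and 82 pathway genes. The causes of these changes were not tested.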

Other observations

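Markers of endothelial and epithelial cells were low. The 7 endothelial markers in the table summed to 2.02 to 2.25 FPKM in GA+H/R, 0.814 to 3.73 in H/R and 2.45 to 9.43 in control libraries, and the 5 epithelial markers to no more than 0.301 FPKM in any library. The 6 markers of smooth muscle and pericytes summed to 1324 to 1348 FPKM in GA+H/R, 2563 to 2585 in H/R and 2678 to 3847 in control libraries. Most of each sum was TAGLN, at 1136 to 1159 FPKM in GA+H/R, 2049 to 2062 in H/R and 1763 to 2570 in control libraries. Of the others, ACTA2 was at 140 to 149 FPKM in GA+H/R, 410 to 419 in H/R and 525 to 973 in control libraries. MYH11 was at 14.1 to 15.0, 19.1 to 21.8 and 29.8 to 60.4 FPKM in the same groups. RGS5 was at no more than 0.285 and MCAM at no more than 0.512 FPKM in any library. CSPG4 was at 25.9 to 33.0 FPKM in GA+H/R, 82.3 to 84.3 in H/R and 216 to 360 in control libraries. Relative to the median locus, 0 of the 4 tested rose and 2 fell in GA+H/R relative to H/R, and 1 rose and 0 fell in H/R against control (limma).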
